A study of Mus musculus with 162 samples.

Results

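The genes described here are the ligands and receptors of axon guidance in mouse tissue treated with MC903, a vitamin D analogue that is painted on the skin to produce an atopic dermatitis-like itch model. They were taken by symbol from the protein-coding genes of the deposited tables: every Sema, Plxn, Robo, Unc5, Efna, Efnb, Epha and Ephb gene, the numbered Slit and Ntn genes, and Dcc, Nrp1 and Nrp2. This gave 70 genes of the 46078 genes listed. They comprised 20 semaphorins, 9 plexins, 2 neuropilins, 3 Slits, 4 Robo receptors, 3 netrins, 5 netrin receptors, 8 ephrins and 14 Eph receptors, which made 34 ligands and 34 receptors. Unc50 and Unc5cl were also taken, by the start of their names only, because they are not netrin receptors. Ntn3 was not analysed here.

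Poly(A) RNA was sequenced from treated cheek skin, from the trigeminal ganglia of the same side, whose sensory neurons innervate that skin, and from thoracic spinal cord of mice treated on the rostral back. All mice were adult males on the C57BL/6 background. MC903 in ethanol was compared with ethanol alone in uninjected wild-type mice on days 1 (6 h after the first application), 2, 5 and 8 in skin and ganglion and on day 8 in cord. On day 8 the same comparison was made in all 3 tissues in wild-type mice injected with PBS or with anti-Gr1 (aGr1, an antibody that depletes neutrophils), in TSLPR KO mice in skin and ganglion, and in BLT1 KO mice in skin. TSLPR KO mice were also compared on day 12 in skin and ganglion. TSLPR is the receptor subunit encoded by Crlf2, and BLT1 is the leukotriene B4 receptor encoded by Ltb4r1. By the labels, both the ethanol and the MC903 group of each knockout line were of that genotype.

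Of the 162 libraries, 143 entered the comparisons (60 skin, 56 ganglion, 27 cord), with 15931871 to 67342879 counts on genes each and a median of 27640826. Wild-type day 12 libraries were left out, because 6 of the 9 labelled as skin carried summed sensory neuron markers above those of every skin library used, up to 19900 CPM (counts scaled to the library total) against at most 163 CPM. One day 2 MC903 skin library (replicate 3) was left out for the same reason, at 4133 CPM. The same markers (20 genes) summed to 4847 to 24729 CPM in the ganglion libraries used, and spinal neuron markers summed to 2412 to 3778 CPM in cord. Crlf2 was at 0 to 8 counts in the day 8 libraries labelled TSLPR KO. It was at 18 to 81 counts on day 12. The day 12 ganglia labelled TSLPR KO held 0.91 to 2.06 CPM, against 1.15 to 2.47 CPM in wild-type ganglia of day 5 and 2.50 to 4.01 CPM in those of day 1. By the overlap with day 5, Crlf2 does not by itself show the deletion in those ganglia. Day 12 skin labelled TSLPR KO held 0.40 to 1.34 CPM, below uninjected wild-type skin of day 8 at 2.24 to 12.3 CPM. Also, 1 wild-type day 8 ethanol ganglion library (replicate 2) held 4 Crlf2 counts where the others held at least 90. Ltb4r1 was at 2.33 to 3.70 CPM (148 to 184 counts) with ethanol and 10.6 to 15.2 CPM (565 to 922 counts) with MC903 in skin labelled BLT1 KO. Uninjected wild-type skin of day 8 was higher, at 6.66 to 10.5 CPM and 33.5 to 77.6 CPM, but anti-Gr1 ethanol skin, also wild type, was at 2.52 to 6.33 CPM, so Ltb4r1 counts do not by themselves show that deletion. Day 8 skin and ganglion libraries of uninjected wild-type mice came in 2 cohorts by their titles, and cohort was a term of that fit. Each library was a tissue sample holding many cell types, so fewer cells of a type and less RNA per cell cannot be told apart.

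Axon guidance molecules steer growing nerve fibres and also act in adult skin, vessels and immune cells. Secreted class 3 semaphorins bind neuropilins, which signal through plexins, whereas most membrane-bound semaphorins bind plexins directly. Slits bind Robo receptors, netrins bind Dcc and the Unc5 receptors, and ephrins bound to one cell signal with the Eph receptor kinases of its neighbour, often in both directions. In skin, these families are known for repelling or attracting sensory endings and for keratinocyte contacts.

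The 3 tissues held these genes at different levels, as seen in the ethanol libraries of uninjected wild-type mice (15 skin, 14 ganglion, 5 cord), with levels given as CPM per kb of exon so that genes can be compared. In skin, the genes of highest median level were the semaphorin receptor Plxnb2 (39.7 CPM per kb), the Eph receptor Epha1 (35), Unc50 (30.9), the kinase-inactive Eph receptor Ephb6 (29.8), the ephrin Efna3 (23.9) and the netrin receptor Unc5b (22.4). In the ganglion they were Sema3b (39.6), the Sema7a receptor Plxnc1 (36), Unc50 (28.4), Sema7a (23.8), Slit1 (21) and Plxnd1 (17). In cord they were the ephrin Efnb3 (80.6), Unc50 (32.5), Sema7a (29.6), Unc5b (17.5), Sema6d (17.2) and Sema4d (16.496). For 12 members the skin range lay above the ranges of both other tissues (Efna1, Efna3, Efna4, Efnb2, Epha1, Epha2, Ephb3, Ephb4, Ntn1, Plxnb2, Sema3c and Slit3). For another 15 the ganglion range lay above both others, among them Slit1, Robo2, Plxnc1, Plxna4 and Nrp1. For a further 10 the cord range did, among them Efnb3, Ephb1, Unc5a and Sema3a. The same counts were not made over all genes, so whether these families differ from other genes in this was not tested. Neighbours in each order often overlapped: Unc50 and Ephb6 in skin and Sema3b and Plxnc1 in the ganglion were not separated by their spread. Reads of Epha1 (with Zyx) and Unc5a (with Hk3) lie partly on a gene of the opposite strand, as do those of Ephb4 with Zan, Ntn5 with Sec1, Sema4c with D430040D24Rik and Efna4 with 4731419I09Rik, and the strand setting of the counting is not given, so these 6 genes are uncertain.

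**Figure D1:**
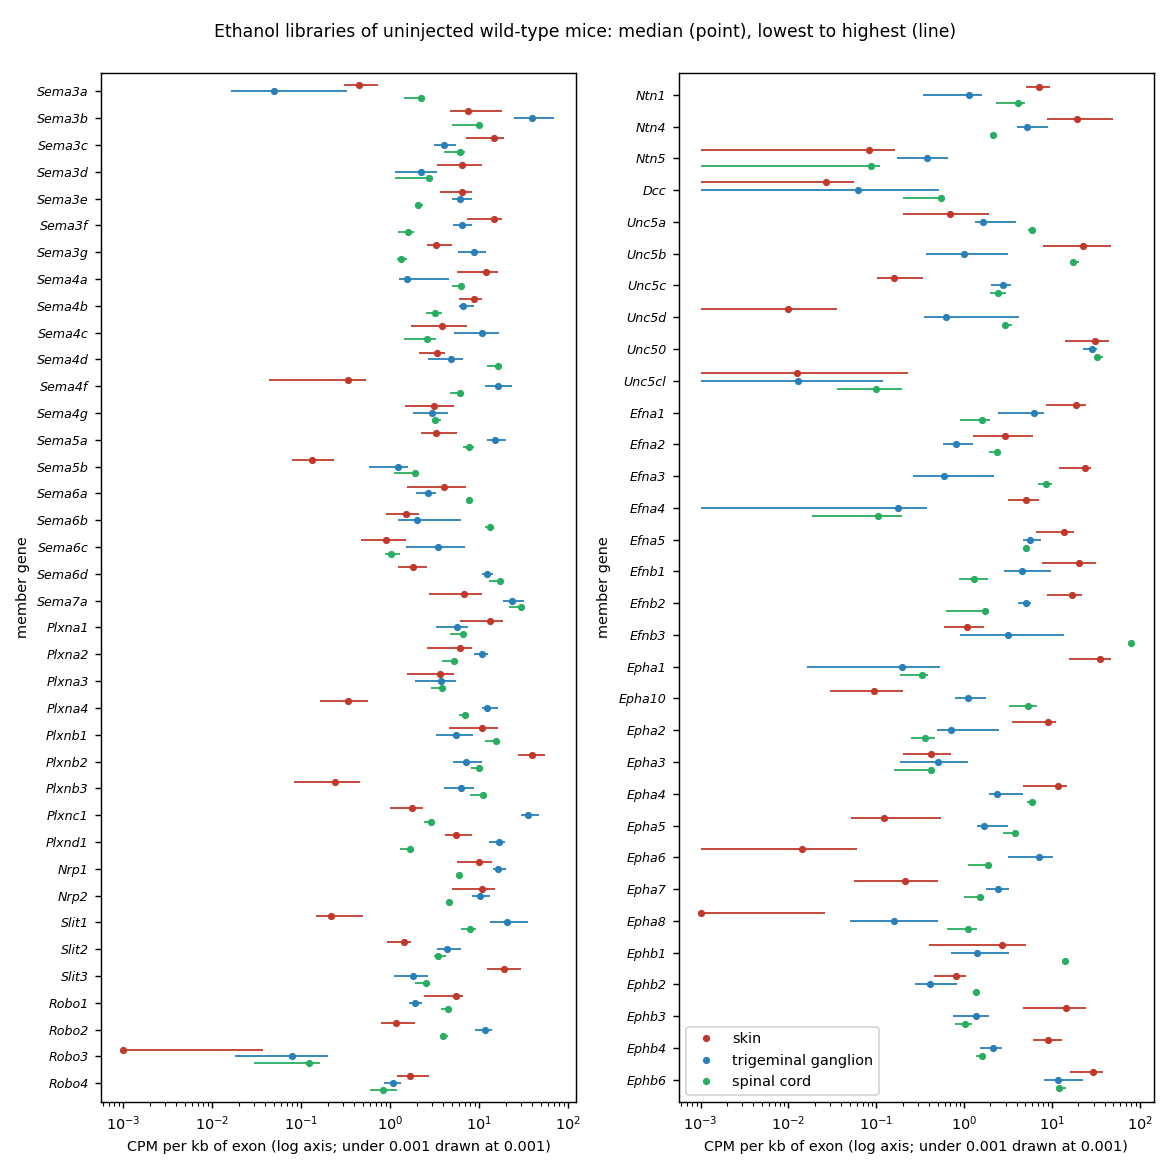
Each member is a row, with the median (point) and the lowest to highest value (line) over ethanol libraries of uninjected wild-type skin (15), trigeminal ganglion (14) and spinal cord (5), on a log axis of CPM per kb of exon, values under 0.001 being drawn at 0.001. Epha1 and Plxnb2 lie far to the right in skin, Slit1 and Plxnc1 in ganglion and Efnb3 in cord.

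At an adjusted p under 0.05 in skin and cord and under 0.1 in ganglion, 54 of the 70 members passed in at least 1 of the 9 skin comparisons, 9 in at least 1 of the 8 ganglion comparisons and 26 in at least 1 of the 3 cord comparisons. Among all genes tested in a tissue, 49.2%, 4.02% and 16.3% passed at least once in skin, ganglion and cord, against 77.1%, 12.9% and 37.1% of the members. The members are all protein-coding, but the genes tested are not: 28359 were tested in skin, against 21519 protein-coding genes listed. This holds for every background percentage given below, and none was matched to the members by gene type or expression level. Whether the members differ from protein-coding genes of similar level was not tested. The tissues differ in the number of comparisons and in the threshold, and no difference between them was tested. The members that passed most often in skin were Sema3d (7 comparisons, always lower with MC903), Epha2 (6, always higher), Ephb2 (5, always higher) and Sema3c (5, always lower). Ephb4, Robo1, Robo2, Epha3 and Ephb1 passed in both directions in different skin comparisons. The 16 that passed in no skin comparison included Slit2, Slit3, Plxna3, Plxna4, Plxnc1, Plxnd1, Efna1 and Sema6a.

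**Figure D2:**
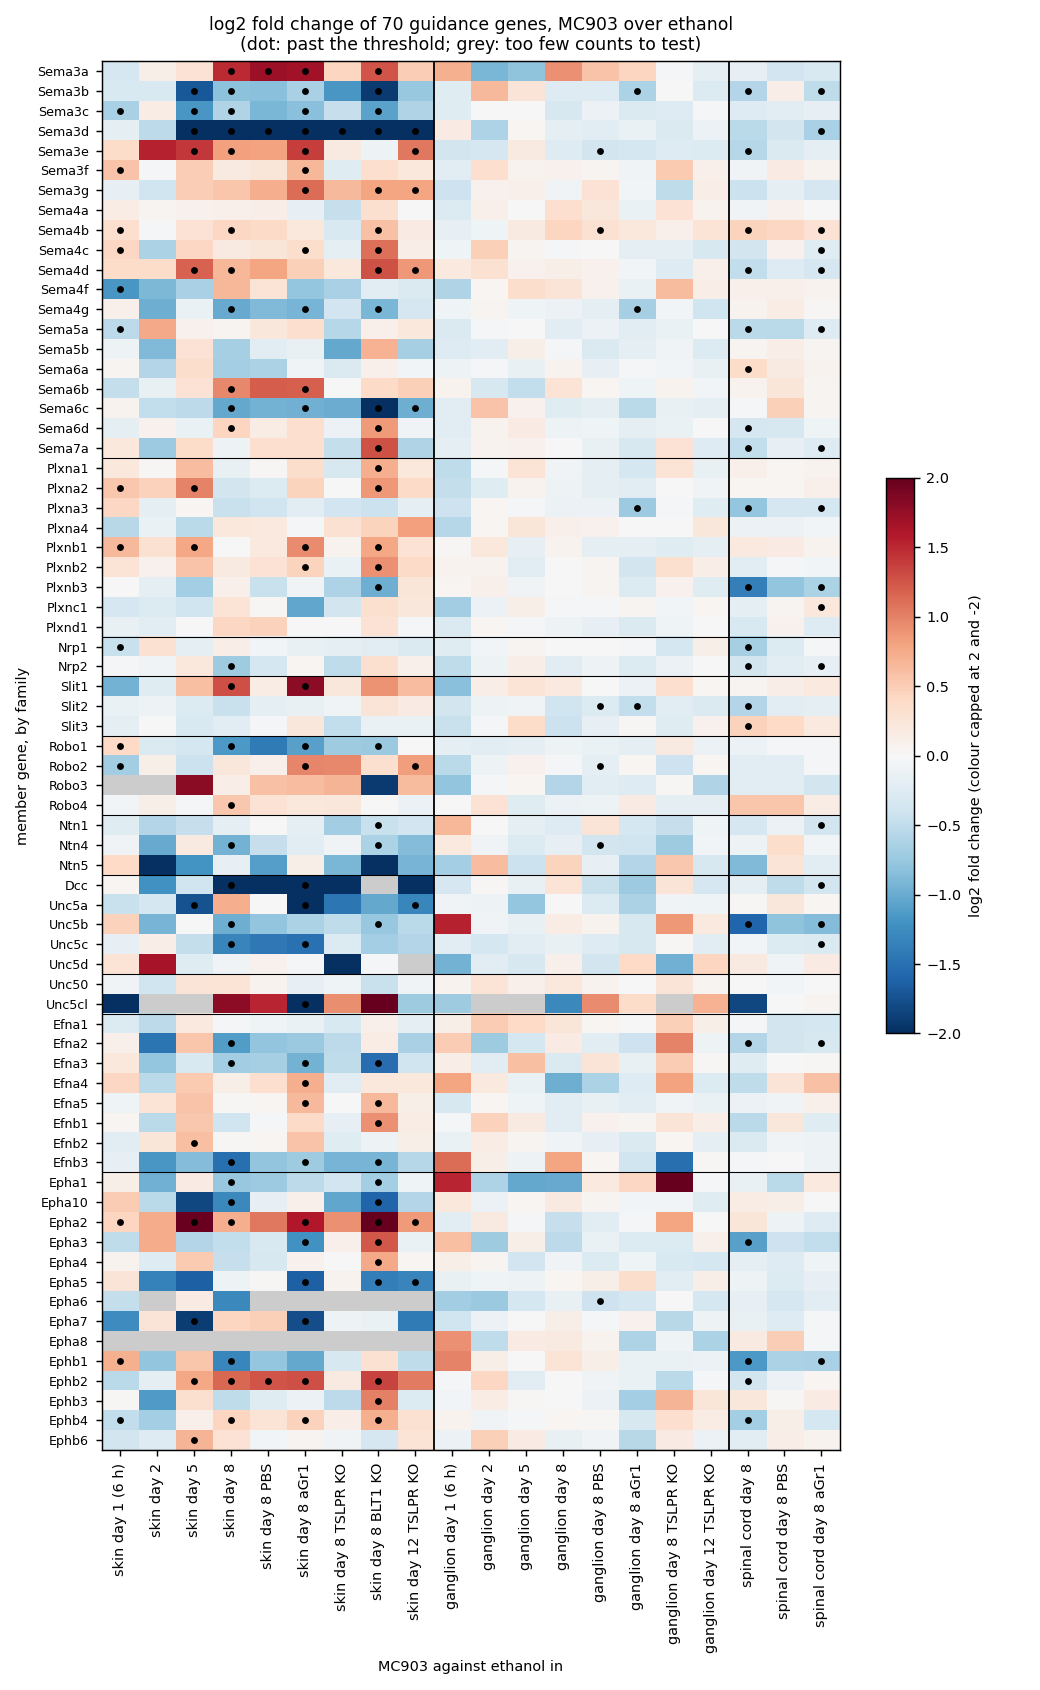
Rows are the 70 members in family order and columns are the 20 comparisons of MC903 with ethanol in skin, ganglion and spinal cord, coloured by log2 fold change with colours capped at 2 and -2, and a dot marks a gene past the threshold. The Sema3d row is blue in 7 of the 9 skin columns with a dot, and the ganglion columns carry 10 dots in all.

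The promoters of these 4 genes are shown because their transcripts moved in most skin comparisons. Each runs from 250 bases before to 50 bases after a transcription start in RefSeq (GRCm38.p6), printed 5′ to 3′ on the gene's strand, and capitals mark the CG dinucleotides. Sema3d, at chr5:12382916-12383215 on the plus strand, holds 8 CG and is 49.7% GC. Epha2, at chr4:141300971-141301270 on the plus strand, holds 10 CG and is 54.7% GC. Ephb2, at chr4:136835963-136836262 on the minus strand, holds 24 CG and is 68.7% GC. Sema3c, at chr5:17574566-17574865 on the plus strand, holds 42 CG and is 75.7% GC.
Sema3d: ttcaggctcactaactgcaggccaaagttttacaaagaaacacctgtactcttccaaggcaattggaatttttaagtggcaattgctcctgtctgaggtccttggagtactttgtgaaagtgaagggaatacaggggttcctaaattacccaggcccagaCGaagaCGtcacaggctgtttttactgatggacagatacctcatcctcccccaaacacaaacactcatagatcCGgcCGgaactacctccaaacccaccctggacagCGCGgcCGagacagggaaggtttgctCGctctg
Epha2: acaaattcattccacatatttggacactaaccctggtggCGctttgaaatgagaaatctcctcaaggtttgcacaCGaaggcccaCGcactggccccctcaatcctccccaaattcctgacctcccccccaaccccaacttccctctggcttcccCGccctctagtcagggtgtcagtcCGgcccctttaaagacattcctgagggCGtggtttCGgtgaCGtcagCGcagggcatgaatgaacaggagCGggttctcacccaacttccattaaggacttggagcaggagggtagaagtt
Ephb2: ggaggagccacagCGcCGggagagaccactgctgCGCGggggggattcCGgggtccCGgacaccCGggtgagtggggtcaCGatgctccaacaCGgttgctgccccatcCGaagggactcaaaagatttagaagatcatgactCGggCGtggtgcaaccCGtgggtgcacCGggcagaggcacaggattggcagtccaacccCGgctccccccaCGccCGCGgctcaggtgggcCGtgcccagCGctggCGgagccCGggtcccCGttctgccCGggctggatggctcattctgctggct
Sema3c: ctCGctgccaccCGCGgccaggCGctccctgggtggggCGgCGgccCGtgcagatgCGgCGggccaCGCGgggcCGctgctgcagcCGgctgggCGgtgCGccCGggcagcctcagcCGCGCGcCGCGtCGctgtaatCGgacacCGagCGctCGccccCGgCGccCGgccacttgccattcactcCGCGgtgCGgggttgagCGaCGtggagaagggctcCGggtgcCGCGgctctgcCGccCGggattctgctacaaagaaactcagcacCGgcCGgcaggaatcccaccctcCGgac
The members that matched the RefSeq table, 60 of 70 with 76 entries, had a median of 19.5 CG and 64.2% GC in this window, against 7 CG and 52.7% GC over all 32851 entries. Altogether 3 motifs were searched on both strands: TGANTCA, the AP-1 site, then AGGTCA, a nuclear receptor element, and finally GGTTCA, which is known from vitamin D receptor sites. TGANTCA was in 3 of 76 member entries (3.95%) against 7.81% of all entries, AGGTCA in 11 of 76 (14.5%) against 16.3%, and GGTTCA in 2 of 76 (2.63%) against 10.4%. Of the 4 promoters shown, Epha2 held 1 AGGTCA, on its opposite strand. A match is a description of these letters and not a bound site.

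At 6 h after the first application (4 MC903 and 4 ethanol skin libraries), 14 of the 68 members tested passed, where 13% of all genes tested did. 8 were higher (background 5.51%) and 6 lower (background 7.47%). The median log2 fold change was -0.06 over members and 0.00 over all genes. The secreted semaphorin Sema3c was at 54, 58.4, 64 and 69.5 CPM with MC903 and at 92.7, 93.1, 98.7 and 102 CPM with ethanol. All MC903 libraries lay below all ethanol libraries, and the log2 fold change was -0.65 ± 0.09 (SE; adjusted p = 0.00277, edgeR's quasi-likelihood test with Benjamini-Hochberg adjustment, as throughout). Sema3f, another secreted repellent, was at 103.4, 107.9, 112.2 and 114.6 CPM against 61.9, 70.4, 81.8 and 82.1 CPM. It was thus higher in every MC903 library (0.56 ± 0.10, adjusted p = 0.00807). Ephb1 rose (0.71 ± 0.16, adjusted p = 0.0226), as did the plexins Plxnb1 (0.64 ± 0.16, adjusted p = 0.0309) and Plxna2 (0.53 ± 0.13, adjusted p = 0.0273), and Ephb4 fell (-0.48 ± 0.09, adjusted p = 0.011). Of the Slit receptors, Robo2 fell by 0.70 ± 0.16 on the log2 scale (adjusted p = 0.0229) and Robo1 rose by 0.40 ± 0.10 (adjusted p = 0.0332). Nrp1, a co-receptor of class 3 semaphorins, was lower (-0.44 ± 0.10, adjusted p = 0.0246), as were Sema5a (-0.52 ± 0.11, adjusted p = 0.0182) and the weakly expressed Sema4f (-1.17 ± 0.34, adjusted p = 0.0497). Sema4b, Sema4c and Epha2 rose by 0.34, 0.42 and 0.43 on the log2 scale. Without MC903 replicate 1 or MC903 replicate 2 the count fell to 3 members, and without ethanol replicate 1 it was 22.

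On day 2 (2 MC903 and 2 ethanol libraries) none of the 66 members tested passed, where 0.257% of all genes (60) did. An unadjusted p under 0.05 was held by 11 members and by 2032 of all 23361 genes. DESeq2 called 1 member and 612 genes in all. Epha2 was at 44 and 52.6 CPM with MC903 and at 28.2 and 29.3 CPM with ethanol, a log2 fold change of 0.75 that did not pass (adjusted p = 0.422). Sema3d was at 37.4 and 48.7 CPM against 61.5 and 62 CPM (-0.52, adjusted p = 0.609). Without MC903 replicate 2 a lone MC903 library was left, and the member count of that fit was not read as a result.

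By day 5 (3 libraries each) 13 of 68 members passed (background 14.9%), 8 higher (background 8.15%) and 5 lower (background 6.78%), and the member median was 0.13 against -0.03 over all genes. Sema3d, a secreted semaphorin, was at 4.75, 8.70 and 11.8 CPM with MC903 and at 47.3, 78.5 and 86.7 CPM with ethanol. The 2 groups lay far apart (-3.07 ± 0.37, adjusted p = 0.00214). Sema3c fell on this day too, by 1.16 ± 0.16 on the log2 scale (adjusted p = 0.00377), with Sema3b (-1.70 ± 0.37, adjusted p = 0.0218), Epha7 (-1.89 ± 0.39, adjusted p = 0.0181) and Unc5a (-1.74 ± 0.45, adjusted p = 0.0377). Epha2, an Eph receptor of epithelia, was at 69.2, 69.9 and 89.6 CPM with MC903 against 17.8, 18.6 and 21.6 CPM. It rose by 1.98 ± 0.17 on the log2 scale (adjusted p = 0.000539), with no overlap. Sema3e, the ligand of Plxnd1, was at 143, 150 and 158 CPM against 44.6, 59.5 and 65.6 CPM (1.41 ± 0.18, adjusted p = 0.00285). Sema4d and its receptor Plxnb1 both rose, by 1.18 ± 0.17 (adjusted p = 0.00452) and 0.77 ± 0.14 (adjusted p = 0.011). Plxna2, Ephb2, Ephb6 and Efnb2 rose by 0.99, 0.78, 0.68 and 0.60. Without MC903 replicate 2 the count was 6, and without ethanol replicate 3 it was 17. The makeup of the skin shifted with MC903 at the same time: summed basal keratinocyte markers (7 genes) were at 12624 to 17247 CPM against 5077 to 6770 CPM, skeletal muscle markers (8 genes) at 4133 to 7928 CPM against 11438 to 15736 CPM, and fibroblast markers (8 genes) at 10209 to 13671 CPM against 13321 to 41857 CPM. No gene of these lists was at 0 counts in every library of a group. Their part in these changes was not tested.

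On day 8 (5 MC903 and 6 ethanol libraries of uninjected wild-type mice) 28 of 69 members passed (40.6%) against 23.4% of all genes. 11 members were higher (background 12.2%) and 17 lower (background 11.2%). Ligands split into 7 higher and 9 lower of 34 tested, and receptors into 4 higher and 8 lower of 33 tested. The median log2 fold change was -0.02 over members and -0.03 over all genes.

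Among the ligands on day 8, Sema3d was at 3.63, 6.19, 6.39, 16 and 16.1 CPM with MC903 and at 29.7 to 60.5 CPM (median 46.2) with ethanol. Every MC903 library lay below every ethanol library (-2.25 ± 0.18, adjusted p = 1.91e-06). Sema3a, a repellent of sensory fibres, was at 13.3, 15.5, 16.6, 19.3 and 24.7 CPM against 4.41 to 10.5 CPM (median 5.58). Again the groups did not overlap, with Sema3a higher (1.49 ± 0.23, adjusted p = 0.000596). Slit1, a Robo ligand, was at 1.34, 1.71, 5.28, 5.84 and 6.32 CPM against 0.959 to 2.81 CPM (median 1.07), so 2 of the 5 MC903 libraries lay within the ethanol range, although the fit passed (1.28 ± 0.29, adjusted p = 0.00686). Both low libraries were those of cohort B, where the log2 fold change was 0.59 against 1.74 in cohort A. Sema3e rose by 0.82 ± 0.09 (adjusted p = 2.93e-05), Sema4d by 0.66 ± 0.10 (adjusted p = 0.00039), Sema6b by 0.96 ± 0.20 (adjusted p = 0.00494), Sema6d by 0.43 ± 0.13 (adjusted p = 0.0317) and Sema4b by 0.42 ± 0.09 (adjusted p = 0.00382). Sema3c (-0.60 ± 0.17), Sema3b (-0.82 ± 0.25), Sema4g (-1.01 ± 0.27) and Sema6c (-1.02 ± 0.18) fell, as did the netrin Ntn4 (-0.95 ± 0.30). Of the ephrins, Efnb3 was at 1.25 to 1.56 CPM with MC903 and 3.05 to 4.80 CPM with ethanol, without overlap (-1.51 ± 0.17, adjusted p = 4.9e-05). Efna3 fell (-0.70 ± 0.17, adjusted p = 0.0106), as did Efna2 (-1.11 ± 0.33, adjusted p = 0.0295).

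Among the receptors on day 8, Ephb2 was at 21.6, 22, 22.3, 22.6 and 25.7 CPM with MC903 and at 8.57 to 12.2 CPM (median 10.1) with ethanol. The MC903 libraries were close together and all above the ethanol libraries (1.16 ± 0.12, adjusted p = 3.12e-05). Epha2 was at 59.8, 76.4, 78.6, 81.4 and 82 CPM against 35 to 53.4 CPM (median 46.6), also without overlap (0.72 ± 0.13, adjusted p = 0.00175). Ephb4 (0.44 ± 0.14, adjusted p = 0.034) and the endothelial Slit receptor Robo4 (0.54 ± 0.18, adjusted p = 0.0446) rose. Robo1, a Slit receptor, was at 23.3, 25.5, 36.9, 68.6 and 71.5 CPM against 81.9 to 109 CPM (median 96.9). It was lower in every MC903 library (-1.15 ± 0.23, adjusted p = 0.00306), by 1.74 in cohort A and 0.47 in cohort B on the log2 scale. The netrin receptors Unc5c (-1.32 ± 0.29, adjusted p = 0.00611) and Unc5b (-0.98 ± 0.28, adjusted p = 0.024) fell, as did the neuropilin Nrp2 (-0.71 ± 0.14, adjusted p = 0.00326). The Eph receptors Ephb1 (-1.31 ± 0.42), Epha10 (-1.30 ± 0.33) and Epha1 (-0.75 ± 0.18) fell as well. Dcc passed at 0 to 3 counts with MC903 and 2 to 29 counts with ethanol, which is too few to give a fold. No plexin passed, and Nrp1 did not.

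Fitted alone, cohort A (3 MC903 and 3 ethanol libraries) gave 28 members, 21 of them among the 28 above, and cohort B (2 and 3 libraries) gave 8: Efnb3, Epha2, Sema4d, Ephb2, Sema3c, Sema4b, Sema3d and Sema3e. Over all genes, 4355 passed in cohort A and 2258 in cohort B, against 6125 with both. The difference between the cohorts was not tested. The titles of cohort A skin repeat a replicate number within each treatment under different bracketed names. Whether those libraries came from separate mice is not stated, and they were fitted as separate libraries. Beside these counts, summed basal keratinocyte markers were at 11026 to 20629 CPM with MC903 and 5353 to 6767 CPM with ethanol, skeletal muscle markers at 2143 to 4046 CPM and 3549 to 16759 CPM, and fibroblast markers at 6849 to 14366 CPM and 9808 to 27455 CPM. Their part in the result was not tested.

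**Figure D3:**
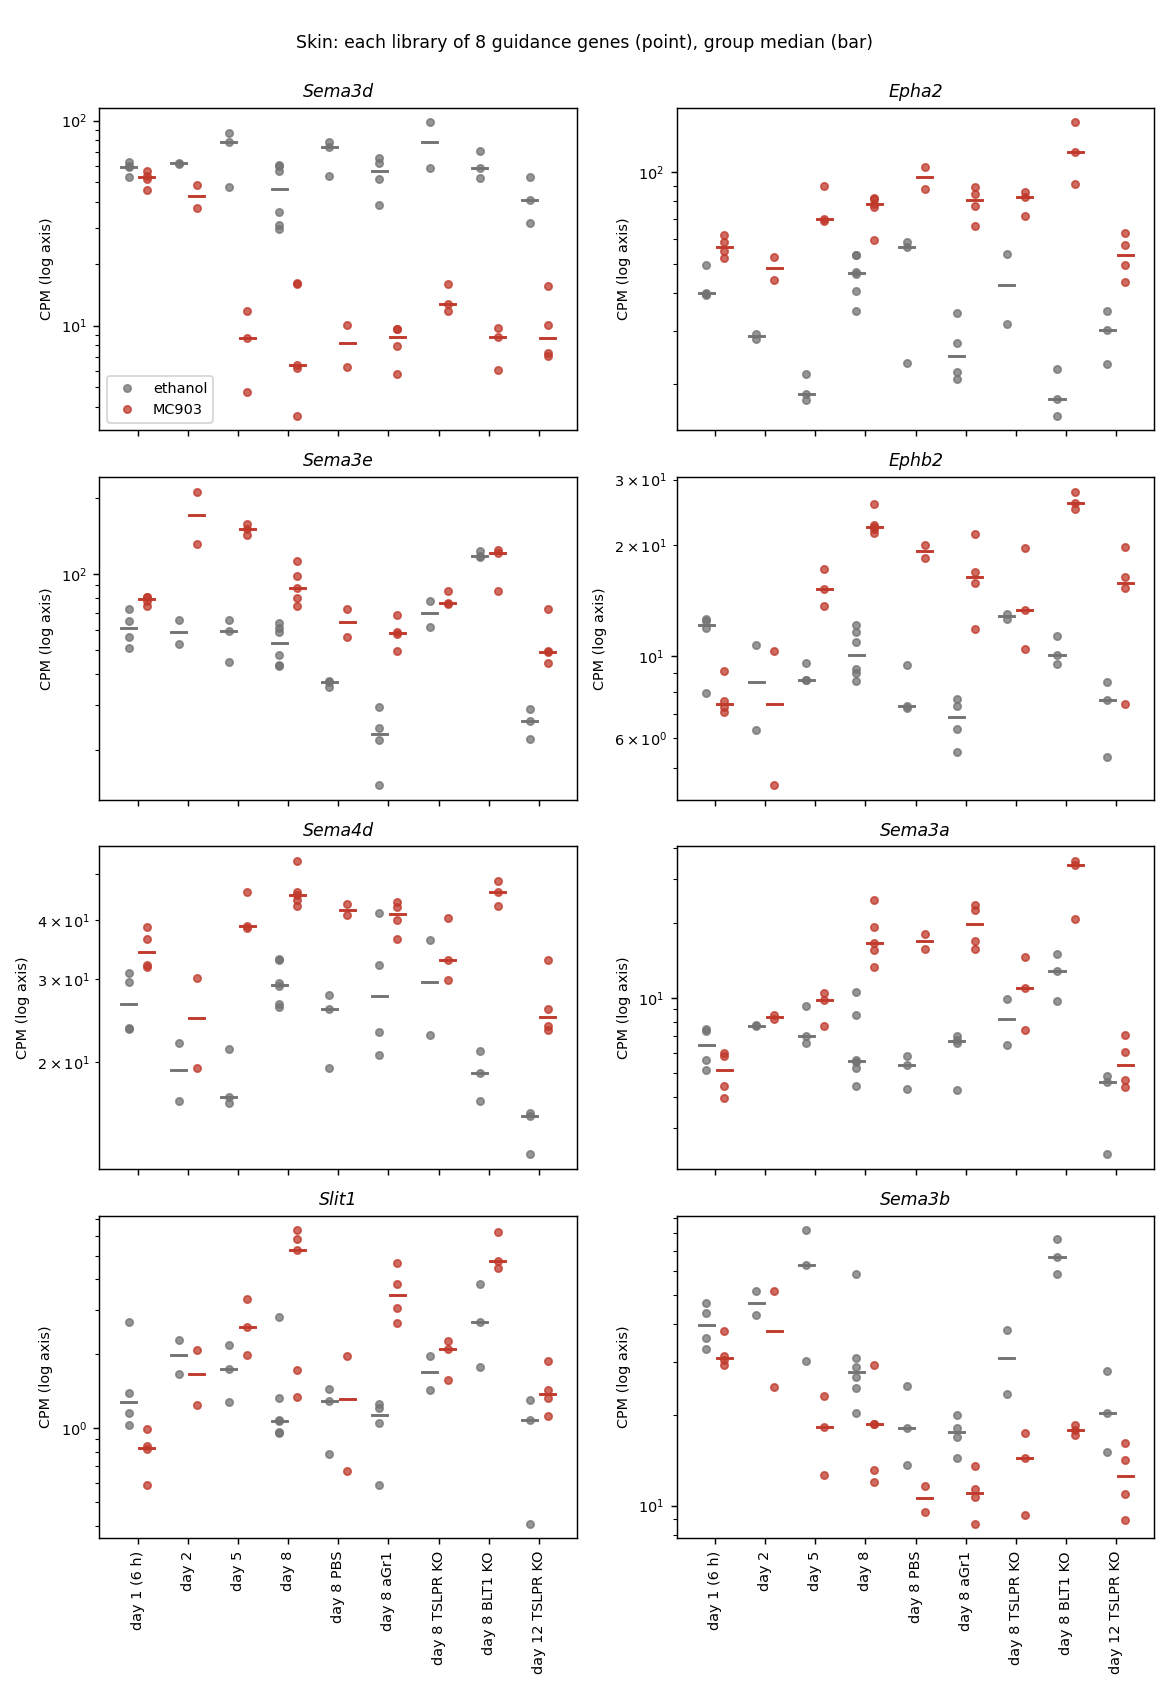
Each panel plots 1 member in skin, with every library as a point and the group median as a bar, in CPM on a log axis, for MC903 and ethanol in the 9 skin comparisons. The Sema3d groups overlap on day 1 and not on day 2, 5 or 8 in uninjected wild-type mice, Ephb2 separates from day 5 in wild-type mice, and 2 MC903 libraries of Slit1 lie in the ethanol range on day 8.

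In wild-type mice injected with PBS (2 MC903 and 3 ethanol skin libraries), 3 of 68 members passed (background 3.99%): Sema3a and Ephb2 were higher (2 members, background 3.26%) and Sema3d lower (1 member, background 0.721%). Sema3d was at 6.28 and 10.1 CPM against 53.5, 74.5 and 78.6 CPM (-3.07 ± 0.31, adjusted p = 0.00554). Sema3a was at 15.8 and 18.1 CPM against 4.31, 5.40 and 5.84 CPM (1.71 ± 0.23, adjusted p = 0.0137), and Ephb2 at 18.4 and 19.9 CPM against 7.25, 7.33 and 9.47 CPM (1.26 ± 0.22, adjusted p = 0.031). None of the 3 genes overlapped between the groups. In all, 22 of the 68 members did not overlap, a count that was not made over all genes. Without ethanol replicate 1 no member passed, and without ethanol replicate 2 the count was 8.

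In mice injected with anti-Gr1 (4 libraries each), 30 of 68 members passed (background 32.6%), 15 higher (background 15.1%) and 15 lower (background 17.5%). Sema3d was at 5.83, 7.93, 9.59 and 9.62 CPM against 38.6, 51.7, 62.1 and 65.4 CPM (-2.72 ± 0.22, adjusted p = 4.03e-05). Epha2 was at 66.5, 77.3, 84.8 and 89.4 CPM against 20.8, 22, 27.5 and 34.3 CPM (1.6 ± 0.17, adjusted p = 0.000212). Both genes were separated between the groups. Sema3a rose by 1.67 ± 0.20 (adjusted p = 0.00038), Sema3e by 1.38 ± 0.20 (adjusted p = 0.00117), Ephb2 by 1.30 ± 0.19 (adjusted p = 0.00124) and Slit1 by 1.78 ± 0.28 (adjusted p = 0.00153). Sema3c (-0.83 ± 0.16, adjusted p = 0.00428), Unc5a (-2.09 ± 0.41, adjusted p = 0.00493), Sema4g (-0.93 ± 0.20, adjusted p = 0.00644) and Efna3 (-0.95 ± 0.21, adjusted p = 0.00816) fell.

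In TSLPR KO skin on day 8 (3 MC903 and 2 ethanol libraries), Sema3d was the 1 member of 68 that passed (background 2.45%), at 11.7, 12.7 and 15.9 CPM against 58.6 and 97.9 CPM (-2.54 ± 0.26, adjusted p = 0.00162). The median over members was -0.26 and over all genes 0.00. Sema3a was at 7.41, 11 and 14.6 CPM against 6.50 and 9.91 CPM, which overlapped (0.43 ± 0.34, adjusted p = 0.613), and Ephb2 was at 10.5, 13.3 and 19.6 CPM against 12.6 and 13 CPM (0.17 ± 0.29, adjusted p = 0.842). Epha2 was at 71.6, 82.9 and 85.8 CPM against 31.6 and 53.7 CPM, without overlap but short of the threshold (0.91 ± 0.26, adjusted p = 0.132). In all, 24 of the 68 members did not overlap, and the same count was not made over all genes.

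On day 12 in the same genotype (4 MC903 and 3 ethanol libraries) 9 of 67 members passed (background 10%), 5 higher (background 5.41%) and 4 lower (background 4.62%). Sema3d was at 7.13, 7.32, 10.1 and 15.6 CPM against 31.8, 41.2 and 53.1 CPM (-2.06 ± 0.30, adjusted p = 0.00339). Sema3e (1.06 ± 0.20, adjusted p = 0.0116), Sema4d (0.86 ± 0.17, adjusted p = 0.0146), Epha2 (0.86 ± 0.19, adjusted p = 0.0228), Sema3g (0.79 ± 0.17, adjusted p = 0.022) and Robo2 (0.84 ± 0.22, adjusted p = 0.0402) were higher. Sema6c, Unc5a and Epha5 were lower, by 0.97 to 1.33 on the log2 scale. Without MC903 replicate 1 the count was 3.

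In BLT1 KO skin (3 libraries each, 49050800 to 67342900 counts per library) 34 of 67 members passed (50.7%) against 28.6% of all genes, 19 higher (background 14.1%) and 15 lower (background 14.6%). Epha2 was at 91.2, 116.1 and 145.5 CPM against 15.8, 17.9 and 22.4 CPM (2.65 ± 0.21, adjusted p = 5.58e-05). Sema3d was at 6.09, 8.81 and 9.78 CPM against 52.2, 58.9 and 70.7 CPM (-2.88 ± 0.21, adjusted p = 3.99e-05). Sema3b was at 17.2, 17.8 and 18.5 CPM against 58.8, 66.8 and 76.5 CPM (-1.92 ± 0.13, adjusted p = 3.39e-05). Each of these was separated without overlap, as were 40 of the 67 members in all. That count was not made over all genes, so it has no background. Ephb2 (1.34 ± 0.14), Sema4d (1.27 ± 0.13), Sema7a (1.27 ± 0.19) and Sema3a (1.26 ± 0.24) rose, and Efna3 (-1.52 ± 0.13) and Sema6c (-2.21 ± 0.28) fell. Of the plexins, Plxna1, Plxna2, Plxnb1 and Plxnb2 rose by 0.72 to 0.91 and Plxnb3 fell by 0.97. Summed hair follicle markers (8 genes, none at 0 throughout a group) in these skins were at 77 to 1148 CPM with ethanol and 3160 to 7832 CPM with MC903, where wild-type day 8 ethanol skin held 13497 to 62540 CPM. Skeletal muscle markers were at 21674 to 39354 CPM with ethanol and 3807 to 9408 CPM with MC903. The part of either list in the result was not tested.

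The MC903 effect was then compared between settings by an interaction term, each time against the same uninjected wild-type day 8 libraries, so the 3 skin interactions share controls. In skin with anti-Gr1, 5 of 69 members passed (background 4.56%). Epha2 rose more than in uninjected mice (difference 0.90 ± 0.22, adjusted p = 0.0259), as did Plxnb1 (0.96 ± 0.24, adjusted p = 0.03). Unc5a differed by -2.81 ± 0.59 (adjusted p = 0.012), from 4.11 to 16.53 CPM in anti-Gr1 ethanol libraries against 0.767 to 4.37 CPM in uninjected ethanol libraries. Its exons overlap Hk3 of the opposite strand and the strand setting is not given, so the Unc5a value is uncertain. Epha5 differed by -1.52 ± 0.40 (adjusted p = 0.035), and Unc5cl passed on few counts. Against the PBS-injected mice in place of uninjected mice, no member passed. Only 62 genes in all passed in that fit, against 1269 with uninjected mice, so its count says little about the members. In TSLPR KO skin none of 70 members passed (background 0.177%). An unadjusted p under 0.05 was held by 12 members and by 3460 of 27120 genes, and DESeq2 called 3 members and 548 genes in all.

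In BLT1 KO skin 15 of 69 members passed the interaction (background 6.95%), 12 with a higher effect (background 4.35%) and 3 with a lower effect (background 2.60%). Epha2 differed most clearly, rising by 2.65 in BLT1 KO and 0.72 in wild-type skin (difference 1.98 ± 0.24, adjusted p = 0.000113). Its MC903 levels lay above those of wild type (91.2 to 146 CPM against 59.8 to 82 CPM) and its ethanol levels lay lower (15.8 to 22.4 CPM against 35 to 53.4 CPM). Efnb1, a transmembrane ephrin, was at 29.1, 31.6 and 34.1 CPM with ethanol and 57, 58.3 and 63 CPM with MC903 in BLT1 KO skin, and at 59.1 to 113.3 CPM and 50.9 to 80.3 CPM in wild-type skin (difference 1.36 ± 0.24, adjusted p = 0.00331). Sema7a, an anchored semaphorin that binds Plxnc1, differed by 1.42 ± 0.27 (adjusted p = 0.00509), and was at 10.1, 12.8 and 15 CPM with ethanol in BLT1 KO against 18.5 to 37.5 CPM in wild type. For each of Epha2, Efnb1 and Sema7a the ethanol groups of the 2 genotypes did not overlap. Plxna2 (1.28 ± 0.27), Epha4 (1.27 ± 0.26), Ephb3 (1.56 ± 0.33) and Nrp2 (1.07 ± 0.22) also differed upwards. For each of these genes the BLT1 KO ethanol levels lay below every wild-type ethanol library. With MC903 the ranges of the 2 genotypes overlapped for each of them. Nrp2, for example, was at 51.2 to 63.2 CPM with ethanol in BLT1 KO against 113.8 to 154.9 CPM in wild type. With MC903 Nrp2 was at 63.03 to 83.9 CPM against 57.7 to 104.1 CPM. Sema3e differed downwards (-0.88 ± 0.16, adjusted p = 0.00395), since it rose by 0.82 in wild-type skin and was at -0.11 in BLT1 KO. With ethanol it was already at 115.99 to 122.7 CPM in BLT1 KO, against 42.9 to 63.9 CPM in wild type. These BLT1 KO ethanol levels lay above every wild-type MC903 library (74.3 to 112.6 CPM). With MC903 Sema3e was at 85.5 to 124.3 CPM in BLT1 KO. Sema6c (-1.13 ± 0.31) and Epha5 (-1.22 ± 0.34) were the other 2 lower effects.

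**Figure D4:**
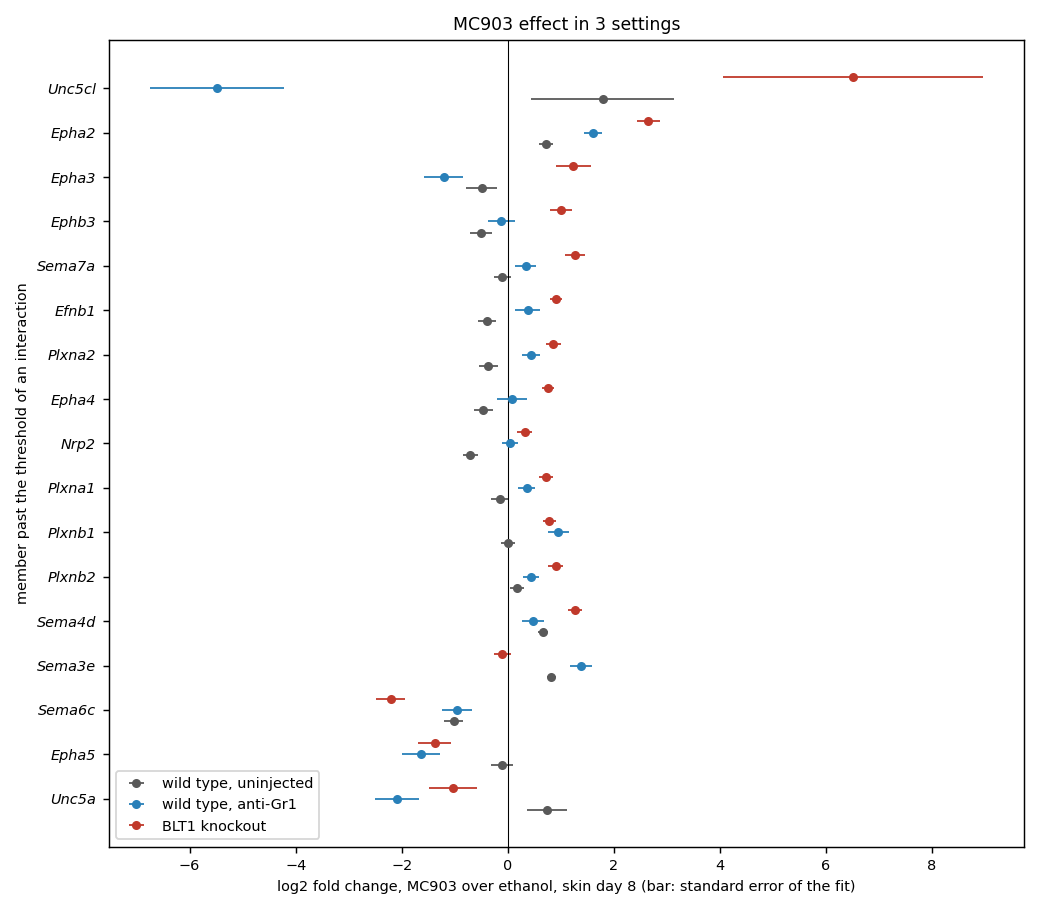
Rows are the 17 members that passed a skin interaction. Points give the log2 fold change of MC903 over ethanol on day 8 in uninjected wild-type, anti-Gr1 and BLT1 KO skin. Bars are 1 standard error, derived from the F test of each fit. Epha2 lies at 0.72, 1.6 and 2.65 in that order, and the Unc5cl points have wide bars from few counts.

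A list of 76 other genes of guidance signalling holds cytoplasmic kinases, regulators of small GTPases and actin proteins, and also further ligands, co-receptors and adhesion molecules. In skin on day 8, 17 of the 76 rose (background 12.2%) and 19 fell (background 11.2%), with a median of -0.05. In BLT1 KO skin 19 rose (background 14.1%) and 15 fell (background 14.6%). The actin regulator Enah rose by 1.57 on the log2 scale, Draxin, a ligand of Dcc, by 3.21, the exchange factor Vav3 by 0.99 and the kinase Abl2 by 0.70. The Slit-Robo GTPase regulator Srgap2 fell by 0.99, Ablim3 by 0.78 and Ngef by 1.36. On day 1 the list had 9 higher (background 5.51%) and 5 lower (background 7.47%), and on day 5 it had 11 higher (background 8.15%) and 6 lower (background 6.78%).

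In the trigeminal ganglion the members moved little. No member passed on day 1 (background 0%), day 2 (background 0%) or day 5 (background 0.00823%), and DESeq2 called 0. On those days 6, 5 and 1 members had an unadjusted p under 0.05, against 2034 of 25319, 1527 of 24092 and 938 of 24300 genes. On day 8 none of 70 passed (background 0.160%), and 10 had an unadjusted p under 0.05, as did 1787 of 25600 genes. DESeq2 called 2 members and 210 genes in all on day 8. The 3 of smallest p were Slit2, Sema4b and Nrp2. Slit2, a Robo ligand, was at 63.2, 76.4, 86.1, 91.7 and 95.4 CPM with MC903 and at 86.9, 104, 104, 108 and 141 CPM with ethanol, so that the groups overlapped (-0.40 ± 0.10, adjusted p = 0.288). Sema4b was at 48.7, 58, 58.7, 65.6 and 67.9 CPM against 36.8, 43, 45.3, 48.6 and 48.8 CPM (0.42, adjusted p = 0.32), and Nrp2 at 103.6 to 125.6 CPM against 122.04 to 140.4 CPM (-0.20, adjusted p = 0.632). The ganglion library with 4 Crlf2 counts is one of these ethanol libraries, and the count was 0 without it too.

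In PBS-injected mice 6 of 70 members passed in the ganglion (background 3.36%), 1 higher (background 1.91%) and 5 lower (background 1.45%). Sema3e was at 28.9, 33.4, 34.2 and 36.3 CPM with MC903 and 40.8, 42.9 and 44.6 CPM with ethanol (-0.37 ± 0.08, adjusted p = 0.0253), and Epha6 at 26.3 to 30.8 CPM against 35.6 to 41.9 CPM (-0.41 ± 0.08, adjusted p = 0.0173). Slit2 was at 50.1, 55.9, 60.3 and 65.7 CPM against 68.4, 71.3 and 71.5 CPM (-0.28 ± 0.08, adjusted p = 0.0895). None of these 3 overlapped, and 16 of the 70 members in all did not overlap, a count not made over all genes. Ntn4 (-0.36 ± 0.10, adjusted p = 0.0925) and Robo2 (-0.17 ± 0.05, adjusted p = 0.0751) were lower and Sema4b higher (0.31 ± 0.08, adjusted p = 0.0748). Leaving out 1 library gave 1 member (without ethanol replicate 2) to 21 members (without MC903 replicate 4).

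With anti-Gr1, 4 of 70 members passed (background 1.88%), none higher (background 0.875%) and 4 lower (background 1.01%): Sema3b (-0.63 ± 0.11, adjusted p = 0.0171), Slit2 (-0.50 ± 0.09, adjusted p = 0.0212), Sema4g (-0.66 ± 0.14, adjusted p = 0.0498) and Plxna3 (-0.73 ± 0.17, adjusted p = 0.0566). Slit2 was at 36.9, 41.5, 41.8 and 47.9 CPM against 55.1, 57.4, 60.9 and 63.3 CPM, and Sema3b at 78.5, 82.7, 100 and 103 CPM against 123.3, 126.8, 155.8 and 158 CPM. Slit2 and Sema3b each lay lower in all MC903 libraries. In all, 12 of the 70 members did not overlap, which was not counted over all genes. Without MC903 replicate 2 the count was 2.

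In TSLPR KO ganglia none passed on day 8 (background 0%) and none on day 12 (background 0.304%). An unadjusted p under 0.05 was held by 5 of 69 members (1886 of 23402 genes) on day 8 and 10 of 70 (1874 of 25969 genes) on day 12. DESeq2 called 0 members on day 8 and 1 on day 12, against 185 and 260 genes in all. On day 12 Slit2 was at 49.2, 52.3, 53.5 and 56.3 CPM against 63.4, 63.5, 64.8 and 67.5 CPM, which did not overlap (-0.29, adjusted p = 0.181). In all, 6 of the 70 members did not overlap there, with no count over all genes. The day 12 replicate numbers paired the libraries (4 pairs), and with the replicate block 4 members and 356 genes in all passed. The members were Slit2 (-0.30, adjusted p = 0.0468), Sema4g (-0.38), Sema4c (-0.33) and Sema3b (-0.27). The interactions in the ganglion gave no member with anti-Gr1 (background 0%) and none in TSLPR KO (background 0%), and DESeq2 called 0 members in both. An unadjusted p under 0.05 was held by 8 members (1709 of 27015 genes) with anti-Gr1 and 7 (2234 of 26576 genes) in TSLPR KO. The fitted Slit2 log2 fold change was below 0 in each of the 5 ganglion comparisons from day 8. The member median was below 0 in all 5 too: -0.03 uninjected, -0.11 with PBS, -0.19 with anti-Gr1, and -0.05 and -0.07 in TSLPR KO on days 8 and 12. Slit2 was named for its small p in these same data, and other members below 0 throughout were not counted. The Slit2 groups overlapped in uninjected wild-type mice and lay close together in TSLPR KO on day 8, at 66.7 and 91 CPM against 91.1 and 92.8 CPM.

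In the spinal cord on day 8 (4 MC903 and 5 ethanol libraries), 20 of 70 members passed (28.6%) against 12.2% of all genes, 3 higher (background 5.05%) and 17 lower (background 7.14%). The median log2 fold change was -0.18 over members and 0.01 over all genes. Unc5b, a netrin receptor, was at 27.6, 34.9, 39.0 and 49.8 CPM with MC903 and from 101.6 to 141 CPM (median 106.8) in the 5 ethanol libraries. The groups lay far apart (-1.58 ± 0.15, adjusted p = 1.7e-05). Plxnb3, a plexin of oligodendrocytes, was at 20.6, 23.4, 25.5 and 37.2 CPM against 57.3, 68.8, 69.7, 69.9 and 78 CPM (-1.37 ± 0.15, adjusted p = 5.11e-05). Ephb1, known in spinal cord pain circuits, was at 37.4, 42.8, 48.4 and 52.1 CPM against 96.4, 97.6, 101, 102 and 104 CPM (-1.15 ± 0.09, adjusted p = 3.41e-06). In all 3 genes every MC903 library was below every ethanol library. Of semaphorin receptors, Plxna3 (-0.77 ± 0.14, adjusted p = 0.00248), Nrp1 (-0.67 ± 0.12, adjusted p = 0.00297) and Nrp2 (-0.37 ± 0.08, adjusted p = 0.00666) fell. Of the ligands, Slit2 (-0.59 ± 0.12, adjusted p = 0.00465), Sema5a (-0.54 ± 0.07, adjusted p = 0.000218), Sema4d (-0.50 ± 0.09, adjusted p = 0.00219) and Sema7a (-0.50 ± 0.10, adjusted p = 0.00673) fell. Slit3 (0.46 ± 0.11, adjusted p = 0.0114), Sema4b (0.45 ± 0.10, adjusted p = 0.01) and Sema6a (0.36 ± 0.07, adjusted p = 0.00583) were higher. Sema6a was at 83, 85.3, 89.5 and 99.1 CPM against 65.7 to 74 CPM, again without overlap. Efnb3, the member of highest level in cord, was at 227 to 301 CPM against 245 to 279 CPM and did not pass.

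**Figure D5:**
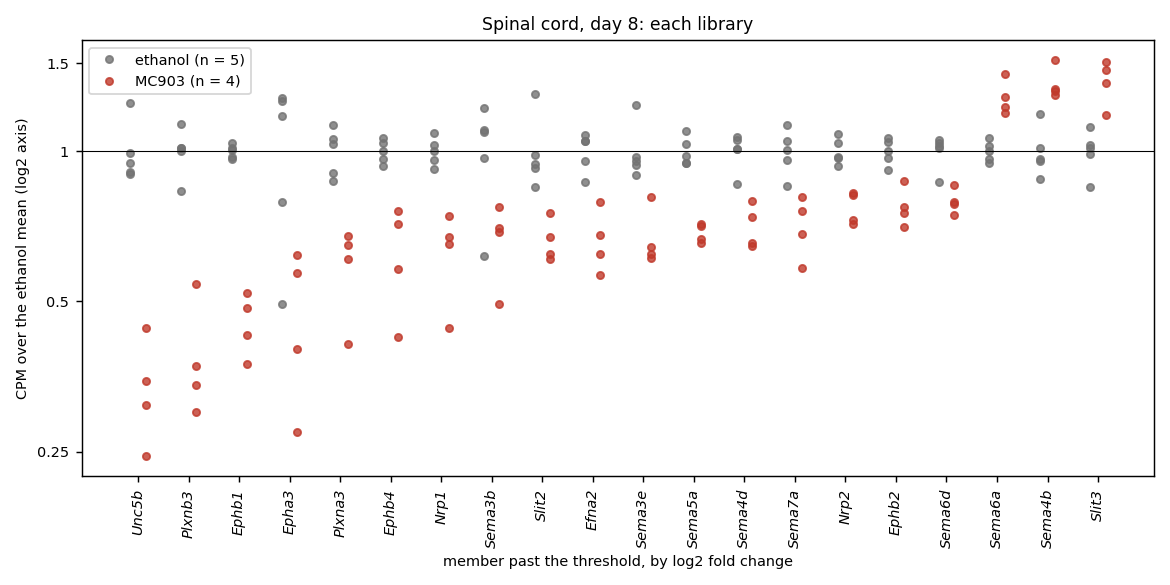
For the 20 members that passed in uninjected wild-type spinal cord on day 8, each point is a library's CPM divided by the ethanol mean, on a log2 axis, for 5 ethanol and 4 MC903 libraries. Unc5b, Plxnb3 and Ephb1 lie lowest with MC903, and Sema6a, Sema4b and Slit3 lie above the ethanol mean.

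Other markers of the cord moved with MC903 on day 8. Summed markers of a joint glia and Schwann cell list (12 genes) were at 22622 to 27606 CPM against 29420 to 35075 CPM. Microglial markers (10 genes) were at 135 to 190 CPM against 267 to 294 CPM, and meningeal markers (4 genes) at 2520 to 3086 CPM against 720 to 2209 CPM. Endothelial markers (8 genes) were at 92.3 to 116.7 CPM against 121.4 to 177.4 CPM, and fibroblast markers (8 genes) at 608 to 713 CPM against 771 to 934 CPM. Spinal neuron markers (9 genes) were higher, at 3405 to 3778 CPM against 3163 to 3385 CPM. None of these 6 ranges overlapped. Oligodendrocyte markers (6 genes), at 4798 to 5818 CPM against 5656 to 6564 CPM, did overlap, as did astrocyte markers (6 genes), at 5137 to 5641 CPM against 5505 to 6106 CPM. No gene of these lists was at 0 counts in every library of a group. Their part in the result was not tested. In PBS-injected mice (2 libraries each) no member passed in cord (background 0%). There, 9 members and 1571 of 24573 genes had an unadjusted p under 0.05, and DESeq2 called 2 members and 178 genes in all. Unc5b was at 49.5 and 63.9 CPM with MC903 and 92.1 and 106 CPM with ethanol there, and Ephb1 at 48.8 and 67.5 CPM against 89.1 and 92.1 CPM. Leaving out MC903 replicate 2 of that comparison left a lone MC903 library, and the member count of that fit was not read as a result.

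With anti-Gr1 (8 MC903 and 6 ethanol libraries) 17 of 70 members passed in cord (background 11.3%), 2 higher (background 4.54%) and 15 lower (background 6.79%). Unc5b ranged from 43 to 81.2 CPM with MC903 (median 64.4) and from 102 to 125.97 CPM with ethanol (median 111), without overlap (-0.87 ± 0.11, adjusted p = 3.43e-05). Ephb1 ranged from 48.2 to 77.6 CPM (median 65.1) against 95.7 to 107 CPM (median 100.01), also without overlap (-0.65 ± 0.09, adjusted p = 6.8e-05). Plxnb3 (-0.63 ± 0.13, adjusted p = 0.00348), Sema4d (-0.34 ± 0.06, adjusted p = 0.000719), Sema7a (-0.26 ± 0.04, adjusted p = 0.000587), Plxna3 (-0.34 ± 0.06, adjusted p = 0.00132) and Dcc, the netrin receptor (-0.37 ± 0.07, adjusted p = 0.00219), fell. Sema4b (0.28 ± 0.07, adjusted p = 0.00934) and Plxnc1 (0.22 ± 0.05, adjusted p = 0.00726) were higher. The joint glia and Schwann cell markers summed to 19074 to 22955 CPM against 24567 to 27806 CPM in these libraries. Astrocyte markers overlapped, at 5201 to 6087 CPM against 5874 to 6461 CPM. In the interaction of anti-Gr1 against uninjected cord, Nrp1 alone of 70 members passed (background 0.532%), at 0.60 ± 0.13 (adjusted p = 0.0285): it fell in uninjected mice, from 55.1 to 65.2 CPM with ethanol to 26.5 to 44.4 CPM, and stood at 34.1 to 43.5 CPM and 36.3 to 42.5 CPM with anti-Gr1. With PBS-injected mice as the reference Nrp1 did not pass, and 0 genes in all did, against 153 with uninjected mice.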

How the data were processed

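The authors deposited raw counts per gene for each library (poly(A) RNA-seq, single-end reads), made per the labels with TopHat2, Bowtie2 and HTSeq on mm10; the annotation release and strand setting are not given in the sources used here. Tally lines that name no gene were left out, and 67.8% to 91.0% of the counts in each library fell on genes. Gene names were taken from the reference tables, and 935 identifiers had none. Groups came from the labels. The members and lists were chosen with earlier results of these data known. The study's methods treat mice as replicates; the labels do not say which mouse gave each library, so p-values measure the spread between libraries.

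Genes with at least 10 counts over the libraries of a comparison were fitted with edgeR 4.0.16 (R 4.3.3, TMM normalization, quasi-likelihood F test), and p-values were adjusted by Benjamini-Hochberg over all genes tested, with a threshold of 0.05 in skin and cord and 0.1 in ganglion. Each comparison was fitted on its own libraries, with cohort as a term on day 8 for uninjected wild-type skin and ganglion. Member values in the comparisons are CPM on library totals scaled by the TMM factors. CPM of marker lists, Crlf2 and Ltb4r1 are on plain library totals. Standard errors were derived from the F test, as the absolute log2 fold change over the square root of F. Groups without overlap were counted over members and not over all genes. In skin they were 19 of 68 on day 1, 26 of 68 on day 5, 13 of 69 on day 8 and 24 of 68 with anti-Gr1. In cord they were 22 of 70, and 8 of 70 with anti-Gr1. The code was tested on simulated data. Named members were those past the threshold by smallest p (up to 12 a direction in skin of days 1, 5 and 8, up to 6 elsewhere), the 3 of smallest p on day 8 and the 6 of highest level in each tissue, and Sema3a, Sema3d and Slit1. Replicate numbers paired the libraries in the ganglion on day 5 (3 pairs, correlation of deviations 0.19 to 0.41) and in TSLPR KO on day 12 (4 pairs, 0.24 to 0.64). Alternatives were DESeq2 1.42.0, its size factors in edgeR, no filter, the replicate block, the cohorts alone, and leaving out each library in turn (none in anti-Gr1 cord).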

Additional observations from a re-analysis of the deposited data

Results flagged for a closer look

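Of 169 groups of 4 to 10 libraries, 12 held a library far from the rest of its group in a named member, and chance flags about 1 in 20 groups. On day 1 in skin these were ethanol replicate 1 for Epha2 (49.3 CPM) and Plxna2 (146 CPM), and MC903 replicate 4 for Robo1 (113.4 CPM) and Sema4b (60.1 CPM). On day 8 in skin they were cohort A MC903 replicates for Ephb2 (A4, 25.7 CPM) and Epha2 (A2, 59.8 CPM) and the cohort A ethanol replicate A3 for Slit1 (2.81 CPM). Sema3a was at 4.28 CPM in anti-Gr1 ethanol skin replicate 4 and Epha5 at 5.06 CPM in TSLPR KO day 12 MC903 skin replicate 3. In cord they were MC903 replicate 4 for Sema4b (27.6 CPM) and ethanol replicate 1 for Unc5b (141 CPM) and Sema4d (105 CPM).

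The MC903 effect differed between settings by the interaction test for 21 values. Against uninjected wild-type skin, anti-Gr1 skin differed on the log2 scale for Epha2 (0.90), Plxnb1 (0.96), Epha5 (-1.52), Unc5a (-2.81, uncertain by its overlap with Hk3) and Unc5cl (-7.12, a fitted value on few counts and no bound). BLT1 KO skin differed for Epha2 (1.98), Epha3 (1.79), Ephb3 (1.56), Sema7a (1.42), Efnb1 (1.36), Plxna2 (1.28), Epha4 (1.27), Nrp2 (1.07), Plxna1 (0.92), Plxnb1 (0.83), Plxnb2 (0.78) and Sema4d (0.66) upwards. It differed for Sema3e (-0.88), Sema6c (-1.13) and Epha5 (-1.22) downwards. Anti-Gr1 cord differed for Nrp1 (0.60). Outside the comparisons, 6 libraries labelled wild-type day 12 skin had summed sensory neuron markers above every skin library used.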

How the results depend on the processing

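No result reversed. Named members that had passed did so again in 130 of 130 values with DESeq2's size factors in edgeR and in all but 1 of 130 with DESeq2. They did so in 130 of 130 without a filter and in 105 of 130 with the replicate block. Over all 200 calls of members, 199, 198, 199 and 158 were kept in those 4 fits. With 1 library left out (none in anti-Gr1 cord), 876 of 1112 values passed again, where a lone library was assumed to vary like the other group. With DESeq2 the member counts that moved became 1 (skin day 2), 6 (skin PBS), 5 (skin TSLPR KO day 8), 2 (ganglion day 8), 10 (ganglion PBS), 10 (ganglion anti-Gr1), 1 (ganglion day 12), 2 (cord PBS), and 9, 3 and 4 for the interactions of anti-Gr1 skin, TSLPR KO skin and cord. Without a filter they were 1 (skin day 2), 4 (skin TSLPR KO day 8), 3 (ganglion day 8), 10 (ganglion PBS), 3 (ganglion TSLPR KO day 8) and 2 (its interaction). The numbers paired the libraries in ganglion day 5 and day 12, where the replicate block gave 4 members on day 12 and no other call changed. Elsewhere libraries shared a number only, and the replicate block gave 1 (skin day 2), 1 (skin PBS), 3 (skin TSLPR KO day 8), 1 (skin day 12), 23 (ganglion PBS), 1 (ganglion TSLPR KO day 8), 12 (cord), 3 (anti-Gr1 skin interaction) and 0 (cord interaction), and crossed numbers in cord PBS, tried after seeing the data, gave 5. Cohort B alone gave 8 on skin day 8, and PBS-injected references gave 0 in both anti-Gr1 interactions. In each fit above whose member count moved, the number of all genes that passed moved the same way. On skin day 2 with DESeq2, for example, it went from 60 to 612. The cause was not tested.

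Leaving out 1 library gave 3 to 22 members on skin day 1, 0 to 16 on day 2, 6 to 17 on day 5, 0 to 8 with PBS, 1 to 3 in TSLPR KO day 8 and 3 to 10 on day 12. It gave 0 to 15 in ganglion day 2 (the highest without ethanol replicate 2), 1 to 21 with PBS, 2 to 5 with anti-Gr1 and 0 to 1 in TSLPR KO day 8, and 0 to 32 in cord PBS. The interactions ranged from 1 to 14 (anti-Gr1 skin; lowest without anti-Gr1 MC903 replicate 1, highest without anti-Gr1 ethanol replicate 3), 0 to 1 (TSLPR KO skin), 0 to 1 (TSLPR KO ganglion) and 0 to 3 (cord, 9 uninjected libraries left out in turn). No library was left out of anti-Gr1 cord alone. Counts over all genes are not given for these fits, so the ranges do not tell members from a wider shift. Comparisons of 2 libraries a group rest on few degrees of freedom, and members under about 1 CPM on few counts.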
